A study of Mus musculus with 8 samples.

Results

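Oxidative phosphorylation is carried out in the inner mitochondrial membrane by 5 protein complexes. The genes described here are the nuclear members of that machinery: every gene of the deposited tables whose symbol starts with Nduf, Uqcr, Atp5, Cox4, Cox5, Cox6, Cox7, Cox8 or Sdh. This rule, which uses names and no measured value, gave 98 of the 32285 genes. They comprised 37 subunits of complex I (NADH dehydrogenase), 8 complex I assembly factors, 4 subunits and 4 assembly factors of complex II (succinate dehydrogenase), 8 subunits of complex III (the cytochrome bc1 complex), 20 genes of complex IV (cytochrome c oxidase, with Ndufa4, Ndufa4l2 and Cox7a2l counted here) and 17 of complex V (ATP synthase). The 13 protein-coding genes of the mitochondrial genome, whose names start with mt-, are set beside them throughout.

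Complexes I to IV pass electrons from NADH and succinate to oxygen and, apart from complex II, pump protons across the membrane; complex V uses the proton gradient to make ATP. The mitochondrial genome encodes the membrane core of complex I, cytochrome b of complex III, the core of complex IV and a part of complex V, while all of complex II and most other subunits come from the nucleus and must be imported. Several complex IV subunits exist as pairs of isoforms with different tissue distributions. In the intestine, stem cells at the crypt base divide and their progeny move up the crypt and onto the villus or the colonic surface as absorptive cells, which have a high demand for ATP to drive nutrient and ion transport.

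The series holds 8 mouse RNA libraries of strain C57BL/6. A pair of droplet single-cell libraries came from passage 1 small intestinal organoids, epithelial cultures grown from intestinal cells, 1 grown alone (CTRL) and 1 in coculture (COCULTURE). The labels do not name the coculture partner. For each, 16 wells were pooled and 100000 epithelial cells were sorted, and both samples were pooled for the 10X run, so each condition is 1 pool of wells. Another pair came from digested small and large intestine, sorted for live cells and enriched for LGR5+ stem cells and CD31+ PDPN+ LYVE1+ lymphatic endothelial cells. The labels name C57BL/6 and Lgr5-eGFP-ires-CreERT2 mice on that background as the source of sorted cells, without saying which cells came from which. The Lgr5-eGFP-ires-CreERT2 allele places a fluorescent protein and an inducible Cre under the stem cell gene Lgr5. The last 4 libraries are Visium sections of 10 µm, 2 technical duplicates each of small and large intestine, in which a spot collects RNA from several cells. Nothing in the labels says which libraries came from separate animals.

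The deposited libraries held 24356162 to 142501907 unique molecular identifiers (UMIs, each a counted RNA molecule). The filters kept 538 cells of the control and 1028 of the cocultured organoids, 2695 of small and 5882 of large intestine, and 2094 to 2571 spots per section. The filter on the mitochondrial share of UMIs, at most 20%, took away 135 and 123 organoid cells but 2378 small and 905 large intestinal cells, so the levels of the mt- genes are bounded by it. Of the kept cells, 533 control and 1023 cocultured organoid cells and 1391 small and 3836 large intestinal cells carried epithelial markers and passed an epithelial gate. Epithelial cells were assigned to classes by markers that include no oxidative phosphorylation gene. 405, 741, 688 and 3001 of them, in the same order, met no class gate. The small and large intestinal libraries shared 25 deposited barcodes, of which 2 were kept in both, and the organoid libraries shared 0.

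Levels are CPM, the usual scaling of UMI counts to a common library total, of the summed cells or spots of a group. Differences are log2 ratios of CPM, followed in square brackets by a 95% interval that covers counting error only, not differences between cells, cultures or animals. With 1 library per condition or tissue, and sections that are technical duplicates, no test was possible and none was made. A gene entered a comparison when the higher group held at least 100 UMIs, which a gene can meet through its high group alone, and it was counted as higher or lower past 1.5-fold. The members Cox4i2, Cox6a2, Cox7b2, Cox8b, Cox8c and Ndufa4l2 reached 100 UMIs in no comparison.

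The 98 genes together took a larger share of the RNA in absorptive cells than in any other gated class of the same library. In small intestinal tissue the share was 6.96% of UMIs in enterocyte-gated cells (n = 112 cells), 5.25% in cycling cells (n = 113) and 4.46% in tuft cells, the chemosensory cells of the epithelium (n = 91). It was 3.55% in stem-gated cells (n = 93), 2.64% in mucus-secreting goblet cells (n = 135), 2.28% in hormone-secreting enteroendocrine cells (n = 21) and 0.560% in Paneth cells (n = 138), which secrete antimicrobial peptides at the crypt base. Absorptive and dividing cells thus came first and secretory cells last. In Paneth-gated cells the Paneth markers alone took 549160.0 CPM of the summed RNA. In the other small intestinal epithelial gates that list stood at 2966 to 14042 CPM.

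Large intestinal tissue gave the same order at the top. Colonocyte-gated cells held 6.59% (n = 154) and cycling cells 4.99% (n = 405). Cells with at least 2 Lgr5 UMIs and in no other class, called Lgr5-positive here because the stem gate held 0 cells of this library, had 4.67% (n = 321). Goblet, tuft and enteroendocrine cells followed with 4.45%, 4.24% and 3.26%. Colonic goblet cells lay much closer to the stem and cycling cells than small intestinal goblet cells did. Outside the epithelium the share was lower than in the epithelial gates of both tissues, except the small intestinal Paneth gate with its 0.560%. It was 1.67% and 1.82% in immune cells of small and large intestine, and 1.77% and 2.15% in lymphatic endothelial cells. Fibroblast-gated cells held 1.97% and 2.08%. These 6 groups were also shallow, with a median of 2574.5 to 6882 UMIs per cell against 11182 to 38734 in the small intestinal epithelial gates.

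In organoids, enterocyte-gated cells again exceeded cycling cells. The shares were 5.58% against 4.90% in control organoids (n = 53 and 48 cells) and 6.67% against 5.25% in cocultured organoids (n = 115 and 107). The mt- genes also took their highest epithelial shares in absorptive cells, 11.0% in small intestinal enterocytes, 13.9% in colonocytes, and 10.8% and 9.26% in control and cocultured organoid enterocytes. Cells over 20% mitochondrial UMIs had been removed, and the order of the mt- shares in small intestine depends on that limit. With a limit of 10%, small intestinal enterocytes held 8.22% and stem-gated cells 7.15%, and with a limit of 50% they held 13.5% and 14.7%, so stem cells were then the higher. The nuclear shares of these cells were 6.53% and 2.88% at the 50% limit, in the same order as before. The mt- genes did not simply track the nuclear genes. Small intestinal stem-gated cells held 8.80% mt- UMIs against 8.50% in cycling cells, while the nuclear members stood at 3.55% against 5.25%. In Paneth-gated cells the mt- share was 3.82%, several times the nuclear 0.560%.

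**Figure D1:**
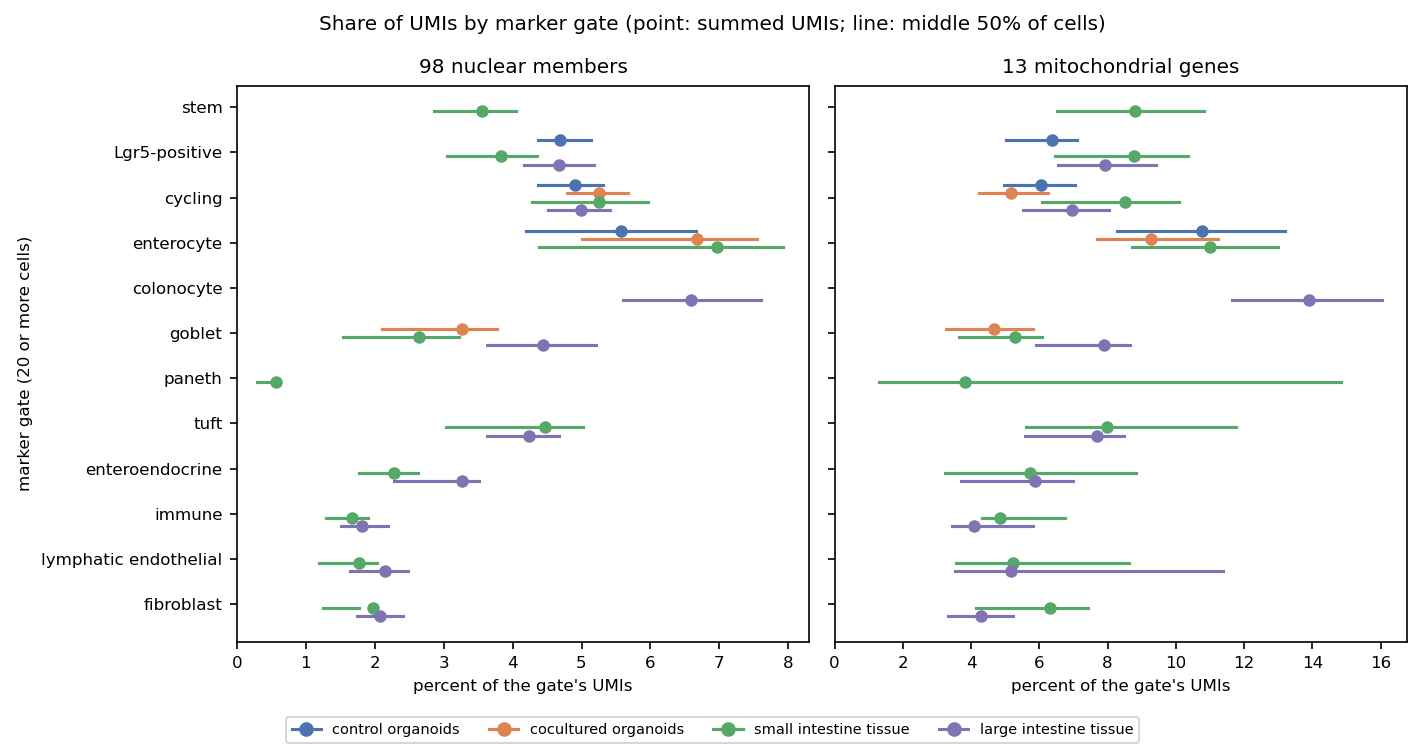
Share of UMIs, in percent, taken by the 98 nuclear genes (left) and the 13 mt- genes (right) in each gated group; points are the share of the summed UMIs and lines span the middle 50% of cells. Absorptive cells stand highest among epithelial gates of every library, at 5.58% to 6.96% for the nuclear genes, and small intestinal Paneth cells lowest at 0.560%; the limit of 20% on mitochondrial UMIs applies, and at 50% small intestinal stem cells exceed enterocytes in the mt- share.

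Which single members followed the path from undifferentiated to absorptive cells was read from 8 comparisons. These were enterocyte over stem cells in small intestine, colonocyte over Lgr5-positive cells in large intestine, enterocyte over cycling cells in each organoid library, and villus or surface spots over crypt spots in each of the 4 sections. Because the sections of a tissue are duplicates, the 8 are not independent. 81 members had enough UMIs in every comparison. In 11 of them the counting interval lay above 0 in all 8, and in 2 it lay below 0 in all 8. Of all 3235 genes with enough UMIs everywhere, 17.1% were higher and 30% lower in this way, so the members' 11 of 81 is near the background and their 2 of 81 far under it. The signs are those of CPM with all genes in the total, and another total moves every gene of a comparison by the same amount. Among the 11, some lowest ratios were small, such as 0.09 for Cox6b1 and 0.13 for Uqcrfs1. These counts are given for this total only.

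The members higher in all 8 were mostly small subunits of complex IV, 7 of its 13 with enough UMIs. Cox7a1, the isoform of subunit VIIa known from heart and skeletal muscle, differed most, with a mean log2 ratio of 3.28 over the 8 comparisons (range 1.83 to 5.77). The others were Cox6a1 (0.76), Cox7a2 (0.65), Cox6c (0.63), Cox6b1 (0.47), Cox8a (0.41) and Cox7c (0.38), all structural subunits around the catalytic core. From complex I came the accessory subunits Ndufa6 (0.87) and Ndufa1 (0.78), and from complex III Uqcrb (0.77) and Uqcrfs1 (0.62), the Rieske iron-sulphur protein. Those lower in all 8 were Ndufaf4, a complex I assembly factor (mean -1.77, range -2.47 to -0.97), and Atp5g2 (mean -1.08, range -1.47 to -0.68), a gene for subunit c of the ATP synthase ring.

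Among the 12 mt- genes with enough UMIs, 6 were higher in all 8 and none was lower in all 8. They were mt-Co1 (1.10), mt-Co2 (0.91) and mt-Co3 (0.70), which encode the core of complex IV, mt-Atp6 (0.77), mt-Nd4l (0.72) and mt-Nd4 (0.62). In small intestinal cells these 6 differed little, from 0.19 for mt-Co1 to 0.42 for mt-Co3. The mt- median in that comparison was 0.29, -0.04 with mitochondrial and ribosomal protein genes left out of the totals and -0.11 with a limit of 50% on mitochondrial UMIs. The mitochondrial ribosomal proteins, which are needed to translate these mt- mRNAs, took the opposite side, with 0 of 58 higher and 27 of 58 lower in all 8. Of the glycolytic genes 8 of 10 were higher, against 3 of 16 genes of the citrate cycle and 2 of 15 of fatty acid oxidation.

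**Figure D2:**
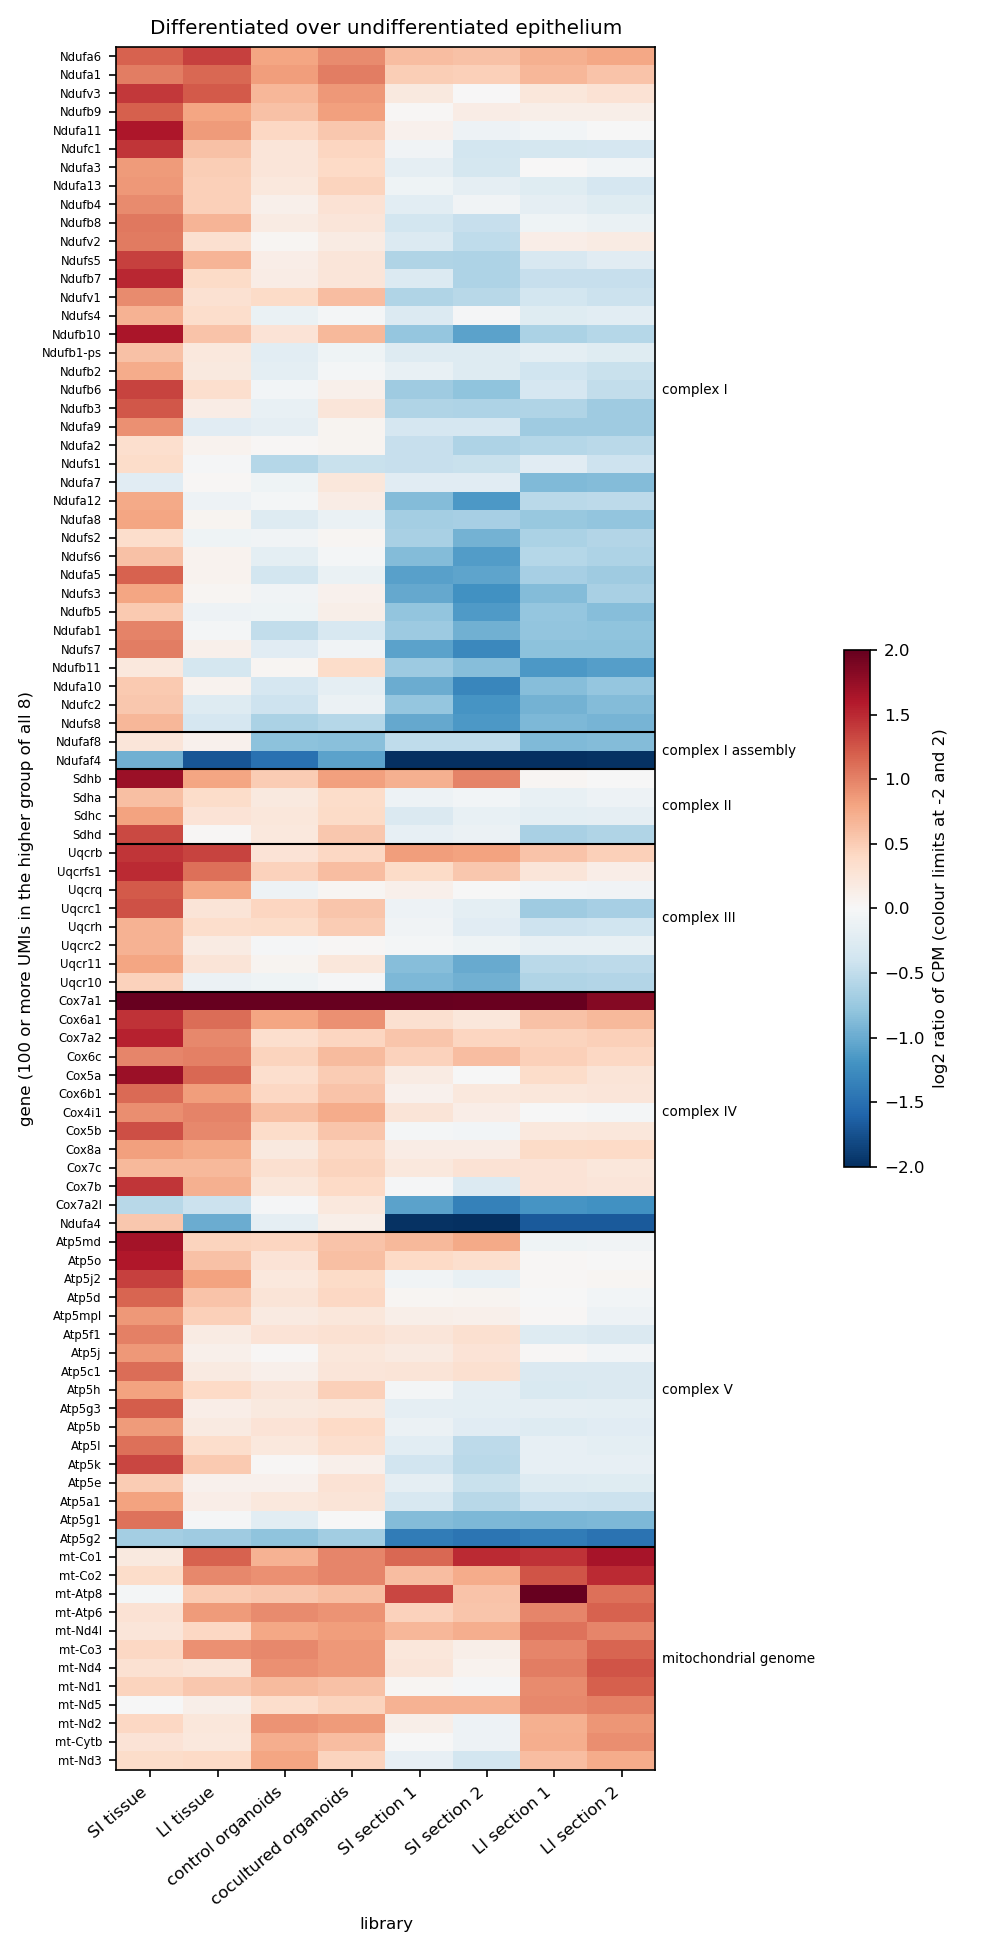
Log2 ratio of differentiated over undifferentiated cells or spots for the 81 members and 12 mt- genes with enough UMIs in all 8 comparisons (columns; SI small intestine, LI large intestine), grouped by complex, with the colour scale ending at 2 and -2. Cox7a1 is at or near the end of the scale in every column, Ndufaf4 and Atp5g2 lie on the opposite side in every column, and many complex I subunits change sign between single cells and sections.

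The promoters of genes from both ends of this gradient are shown because they carry, or lack, the binding motif of NRF1, a transcription factor known for driving nuclear genes of the respiratory chain. Each is the 250 bases before the RefSeq transcription start (build GRCm38.p6), read 5′ to 3′ on the strand of the gene, with matches to the NRF1 motif GCGCATGCG, on either strand, in capitals. Ndufaf4 lies on the plus strand, at chr4:24897833-24898082, Atp5g2 on the minus strand, at chr15:102671048-102671297, Cox6a1 on the minus strand, at chr5:115348959-115349208, and Cox7a1 on the plus strand, at chr7:30183921-30184170.
Ndufaf4: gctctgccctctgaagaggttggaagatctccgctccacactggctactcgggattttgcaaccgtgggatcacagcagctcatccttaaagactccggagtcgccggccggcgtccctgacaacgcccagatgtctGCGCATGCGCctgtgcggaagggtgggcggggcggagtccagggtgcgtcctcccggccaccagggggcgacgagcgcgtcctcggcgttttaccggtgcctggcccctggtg
Atp5g2: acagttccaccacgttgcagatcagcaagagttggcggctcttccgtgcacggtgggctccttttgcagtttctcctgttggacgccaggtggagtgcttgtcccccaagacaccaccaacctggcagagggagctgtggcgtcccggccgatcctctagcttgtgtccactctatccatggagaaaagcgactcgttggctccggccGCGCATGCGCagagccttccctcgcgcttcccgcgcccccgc
Cox6a1: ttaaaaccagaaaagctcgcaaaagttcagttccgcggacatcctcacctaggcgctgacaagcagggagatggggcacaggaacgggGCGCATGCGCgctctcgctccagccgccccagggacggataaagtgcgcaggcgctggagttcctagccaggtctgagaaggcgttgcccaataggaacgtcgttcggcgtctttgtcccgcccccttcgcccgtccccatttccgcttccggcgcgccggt
Cox7a1: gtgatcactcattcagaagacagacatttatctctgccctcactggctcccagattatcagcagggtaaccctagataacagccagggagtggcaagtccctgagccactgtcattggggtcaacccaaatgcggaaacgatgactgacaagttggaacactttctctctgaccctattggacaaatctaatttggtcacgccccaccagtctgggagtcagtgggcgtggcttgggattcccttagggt

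Ndufaf4 and Atp5g2, lower in absorptive cells, and Cox6a1, higher in them, each held the NRF1 motif, and the window of Cox7a1 held none of the 5 motifs searched. The search used both strands of a 300-base window from 250 before to 50 after the start, and 79 of the 98 members had such a window. The NRF1 motif was present in 10 of the 79 (12.7%: Ndufaf4, Ndufaf5, Ndufa8, Ndufa11, Uqcrc1, Uqcr11, Cox6a1, Atp5g2, Atp5k and Atp5l) against 1.95% of all 27025 genes. The YY1 motif AAGATGGCG was present in 8 (10.1%, against 1.64%), the ERR motif TCAAGGTCA in 2 (2.53%, against 0.466%), the ETS motif CCGGAAGT in 5 (6.33%, against 4.31%) and the E-box CACGTG in 5 (6.33%, against 8.09%). A match is a run of letters, and binding was not measured.

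Cox7a1 and Cox7a2 encode alternative forms of the same complex IV subunit and were measured side by side. In small intestine, the Cox7a1 level was 8.93 CPM in stem-gated cells, 28.5 in cycling cells and 489 in enterocytes, from 16, 119 and 1418 UMIs. In large intestine it was 9.66 CPM in Lgr5-positive cells, 20.9 in cycling cells, 142 in goblet cells and 234 in colonocytes. In organoids it was 47.3 and 35.3 CPM in cycling cells and 476 and 598 in enterocytes, control and cocultured. Absorptive cells were thus the high group in all 4 single-cell libraries, with intervals that did not overlap those of the undifferentiated cells. In tissue the UMIs were not those of a few cells: 21 of 112 small intestinal enterocytes and 31 of 154 colonocytes held 50% of them. In organoids 9 of 53 control and 28 of 115 cocultured enterocytes held 50%, and 1 control cell held 213 of 1846 UMIs.

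Cox7a1 stood at 6.93 CPM in tuft and 5.48 in Paneth cells of small intestine, and at 7.12 and 3.32 CPM in immune cells of the 2 tissues. Enteroendocrine cells had 27.1 and 36.9 CPM in small and large intestine, from 7 and 16 UMIs. Goblet cells had 41.3 CPM in small and 142 in large intestine. Cox7a2, the widely expressed form, ran from 524 CPM in stem cells to 1524 in enterocytes and from 853 in Lgr5-positive cells to 1659.8 in colonocytes, differences of 1.54 [1.44 to 1.64] and 0.96 [0.91 to 1.01]. The same differences for Cox7a1 were 5.77 [5.07 to 6.58] and 4.60 [4.28 to 4.93], so the muscle-type isoform differed far more than its partner. In small intestinal sections Cox7a1 stood at 24.2 and 31.8 CPM in crypt and 135 and 125 in villus spots of sections 1 and 2, and in large intestinal sections at 49.7 and 63.2 in crypt and 227 and 225 in surface spots.

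**Figure D3:**
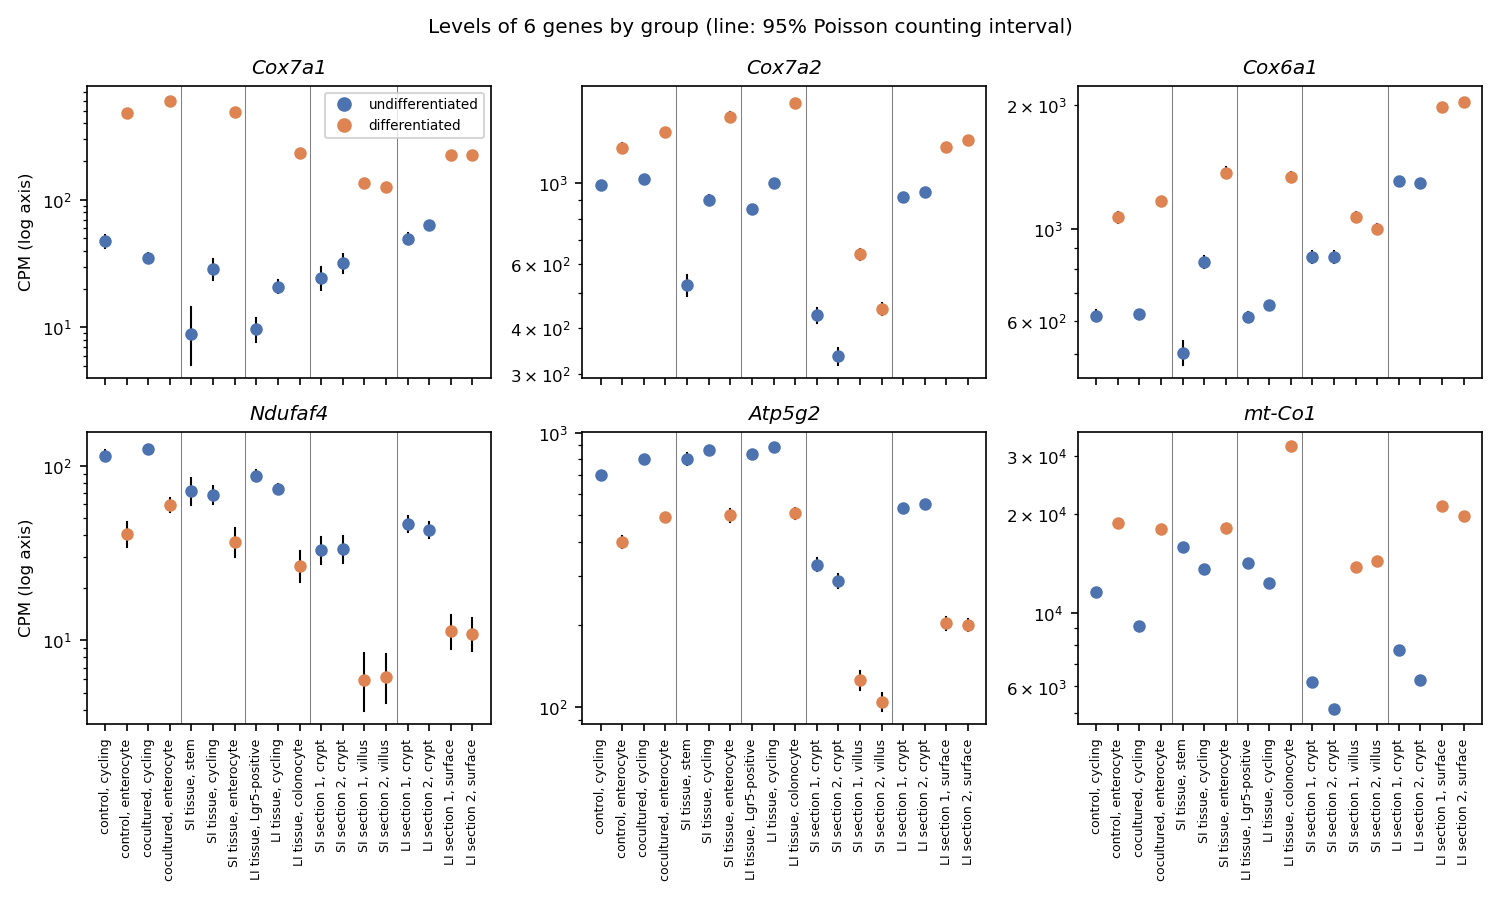
CPM on a log axis of 6 genes in 18 groups of cells or spots, with lines for the 95% counting interval. Cox7a1 spans 8.93 to 598 CPM between small intestinal stem cells and cocultured organoid enterocytes, while Ndufaf4 and Atp5g2 are lower in absorptive than in undifferentiated groups of every library.

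Subunit c of ATP synthase is encoded by Atp5g1, Atp5g2 and Atp5g3, whose mature products are the same protein. Their log2 ratios of small intestinal enterocytes over stem cells were 1.08 [0.99 to 1.18], -0.68 [-0.79 to -0.58] and 1.22 [1.11 to 1.33]. Those of colonocytes over Lgr5-positive cells were -0.03 [-0.08 to 0.03], -0.71 [-0.79 to -0.64] and 0.13 [0.06 to 0.21]. In these single-cell comparisons Atp5g2 alone lay below 0 in both tissues beyond its counting interval. On the sections all 3 were higher in crypt than in villus or surface spots. The log2 ratios of crypt over villus or surface spots in sections 1 and 2 of small and sections 1 and 2 of large intestine were 0.87, 0.90, 0.91 and 0.91 for Atp5g1, and 0.18, 0.19, 0.18 and 0.20 for Atp5g3, which lies below the median of all genes in each section. They were largest for Atp5g2, at 1.40, 1.46, 1.40 and 1.47. The level of Atp5g2 was 803 CPM in stem cells, 869 in cycling cells and 499.8 in enterocytes of small intestine, and 834, 884 and 508 CPM in Lgr5-positive cells, cycling cells and colonocytes of large intestine.

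In small intestinal tissue, most subunits of every complex were higher in enterocytes than in stem cells. Of 82 members with enough UMIs, 66 were at least 1.5-fold higher and 2 lower, against 38.7% and 34% of all genes. Their median was 0.96, against 0.18 over all genes. By complex the medians were 0.91 for complex I (28 of 37 higher), 1.06 for complex II (4 of 4), 1.01 for complex III (7 of 8), 1.13 for complex IV (11 of 13) and 1.08 for complex V (15 of 17). The complexes therefore differed from the stem cells by about the same amount. The enterocytes were the deeper group, with a median of 28847 UMIs per cell against 18640, and the part of depth in the result was not tested. With Lgr5-positive cells in place of the stem gate, the median was 0.78 and all genes stood at -0.41.

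After Cox7a1, the highest were Sdhb, the iron-sulphur subunit of succinate dehydrogenase, at 209.9 CPM in stem cells and 690.4 in enterocytes (1.72 [1.56 to 1.88]), and Cox5a at 646 and 2113 (1.71 [1.62 to 1.80]). Atp5md, a small subunit of the ATP synthase dimer, stood at 1.67 [1.54 to 1.80] and the complex I subunit Ndufb10 at 1.63 [1.47 to 1.79]. The remaining subunits of complex II were also higher, with 0.60 for the flavoprotein Sdha, 0.80 for Sdhc and 1.32 for Sdhd, the membrane anchors. Among members with enough UMIs, Ndufaf4 (-0.97 [-1.35 to -0.59]), Atp5g2, Cox7a2l, known for joining complexes III and IV into supercomplexes, at -0.55 [-0.69 to -0.41], and Ndufa7 at -0.22 [-0.36 to -0.08] were lower in enterocytes. The minimum of 100 UMIs also left out rare members that were lower. With a minimum of 20 UMIs the count lower past 1.5-fold was 8, which adds the assembly factors Ndufaf7 (-1.30), Sdhaf3 (-1.28), Ndufaf6 (-0.99), Ndufaf1 (-0.85) and Sdhaf1 (-0.68) and the isoform Cox6b2 (-1.34). Not all assembly factors were lower. Of those that met 100 UMIs beside Ndufaf4, Ndufaf3 stood at 1.07 [0.49 to 1.69] and Ndufaf8 at 0.24 [-0.04 to 0.53].

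The mt- genes differed less, with a median of 0.29 and a range of -0.70 (mt-Nd6) to 0.44 (mt-Nd1). That direction was not stable: the median was -0.04 when mitochondrial and ribosomal protein genes were left out of the totals, and -0.11 when cells of up to 50% mitochondrial UMIs were kept. Neighbouring pathways differed unevenly. Glycolytic genes were at a median of 1.93 (10 of 10 higher), fatty acid oxidation at 0.96 (9 of 15) and the citrate cycle at 0.52 (7 of 16). Mitochondrial ribosomal proteins were at -0.28, with 8 higher and 18 lower of 60.

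Other lineages of small intestine differed from the stem cells in their own ways. Cycling cells had a member median of 0.64 against 0.24 over all genes, with 48 of 87 higher and 0 lower against 25% and 7.25%. The mt- genes there stood at -0.0026. Goblet cells had -0.48 against -0.21, with 2 of 81 higher (28.1% of all genes) and 28 lower (40.7%). The exceptions in goblet cells were Cox7a1 (2.21 [1.46 to 3.06]) and Ndufv3 (0.67 [0.49 to 0.84]), a subunit of the NADH-binding arm of complex I. In Paneth cells 80 of 80 were lower and 0 higher, against 91.4% and 5.26% of all genes, and the median of -2.63 was close to the -2.51 of all genes. Relative to the median of all genes, the mt- genes of Paneth cells stood at 1.28 and the nuclear members at -0.12.

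Tuft cells were a mixed case, with a median of 0.31 against 0.17, 26 of 83 higher (36.1% of all genes) and 4 lower (25.3%). The assembly factor Ndufaf3 led them, at 112 CPM against 17.9 in stem cells, 2.65 [2.10 to 3.25]. Sdhaf4, an assembly factor of succinate dehydrogenase, followed at 1.84 [1.34 to 2.37], and Ndufaf4 was lowest at -1.52 [-2.09 to -0.98]. The assembly factors of tuft cells thus lay at both ends. No counts are given for the 21 enteroendocrine cells of small and the 33 of large intestine, where a gene higher than in the base group reaches 100 UMIs only at a high level.

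In large intestinal tissue the difference between colonocytes and Lgr5-positive cells was largest in complex IV. Of 92 members, 23 were higher and 10 lower past 1.5-fold, against 20.1% and 50.8% of all genes. The median was 0.20 against -0.61, that is 0.81 above all genes. Counted from the median of all genes, 70 members were higher and 2 lower, against 31.4% and 33.2%. The sign of the member median depends on the scale, and it was -0.07, with 12 members higher, when mitochondrial and ribosomal protein genes were left out of the totals, a step that moves every gene by the same amount. Complex IV stood at 0.90 with 11 of 14 higher, while complexes I, II, III and V stood at 0.20, 0.32, 0.31 and 0.18, and the complex I assembly factors at -0.62 with 5 of 8 lower. All 13 mt- genes lay above 0 (median 0.41, but 0.079 with a limit of 10% on mitochondrial UMIs and 0.13 with those smaller totals), led by mt-Co1 (1.18), mt-Co2 (0.96) and mt-Co3 (0.91), again those of complex IV.

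After Cox7a1, the highest colonocyte members were Ndufa6, at 429 CPM in Lgr5-positive cells and 1106 in colonocytes (1.37 [1.30 to 1.43]), Uqcrb (1.35 [1.30 to 1.41]), Ndufv3 (1.23 [1.14 to 1.32]) and Cox5a (1.15 [1.11 to 1.19]). Cox4i1, the main form of subunit IV, stood at 0.98, Cox6a1 at 1.12, Cox6b1 at 0.84 and Cox8a at 0.75. Of complex II, Sdhb stood at 0.79, Sdha at 0.36, Sdhc at 0.27 and Sdhd at 0.03. The lowest were assembly factors and an isoform. Ndufaf4 stood at 87.4 CPM in Lgr5-positive cells and 26.6 in colonocytes (-1.71 [-2.04 to -1.40]), followed by Ndufaf1 (-1.09 [-1.57 to -0.64]), Ndufaf2 (-1.04 [-1.30 to -0.78]) and Sdhaf1 (-1.04 [-1.38 to -0.71]).

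Cox6b2, known as the testis form of subunit VIb, was the lowest of all large intestinal members in colonocytes. It had 216 UMIs in Lgr5-positive cells (24.0 CPM), 400 in cycling cells (26.9 CPM), 3 in colonocytes (0.850 CPM) and 6 in goblet cells (1.39 CPM). The log2 ratio of colonocytes over Lgr5-positive cells was -4.82 [-7.11 to -3.25], which rests on 3 UMIs in the lower group. Its partner Cox6b1 was higher in colonocytes than in Lgr5-positive cells, so the 2 forms of this subunit differed in opposite directions. Their levels are not set side by side here, and the opposite signs do not show that one form replaced the other. Cox6b2 reached 51.9 CPM in fibroblast-gated cells of large and 43.3 of small intestine, but only 4.41 and 4.47 CPM in control and cocultured organoids.

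Cycling cells of large intestine hardly differed from Lgr5-positive cells, with a median of 0.11 against 0.05 over all genes, 2 of 92 higher against 7.68% and 0 lower against 4.44% of all genes. The higher were Cox7a1 (1.11 [0.76 to 1.47]) and Ndufaf3 (0.72 [0.54 to 0.90]). Goblet cells stood at -0.16 against -0.58 for all genes, with 2 of 92 higher (15.3%) and 13 lower (49.6%), and Cox7a1 at 3.88 [3.55 to 4.22] was far above the next, Ndufv3 (0.87 [0.78 to 0.96]). Tuft cells stood at -0.22 against -0.45, with 2 higher and 13 lower of 85 against 8.67% and 42.2%, led by Cox6c (0.79 [0.72 to 0.86]). Ndufv3 was among the 5 highest members in colonocytes, goblet and tuft cells of large intestine alike.

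In organoids, enterocyte-gated cells were compared with cycling cells, since the stem gate held 4 and 5 cells. The subunits stood near 0 while the assembly factors of complex I were uniformly lower. The member median was 0.09 in control and 0.24 in cocultured organoids, against -0.59 and -0.57 over all genes. In control organoids 7 of 91 were higher (20.7% of all genes) and 11 lower (50.2%), and in cocultured organoids 13 (20.6%) and 9 (49.5%) of 91. Counted from the median of all genes, 52 were higher and 6 lower in control (33.3% and 32.9% of all genes) and 63 and 5 in cocultured organoids (32.9% and 34%). All 8 assembly factors of complex I were lower past 1.5-fold in both libraries, with medians of -1.67 and -1.39, and the lowest was Ndufaf6 (-2.46 [-3.09 to -1.88] and -2.29 [-2.63 to -1.96]), at 38.3 and 47.7 CPM in cycling cells and 6.96 and 9.76 in enterocytes. Other assembly factors of the chain stood at -0.83 and -0.61 and the mitochondrial ribosome at -1.29 and -1.22, with 66 and 64 of 78 genes lower.

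The highest organoid members after Cox7a1 (3.33 [3.15 to 3.51] in control and 4.08 [3.95 to 4.21] in cocultured) were Ndufa1, Cox6a1, Ndufa6 and Ndufv3. Ndufa1 stood at 0.83 [0.73 to 0.93] and 1.02 [0.95 to 1.08], and Cox6a1 at 0.79 [0.73 to 0.85] and 0.91 [0.87 to 0.95]. All of them were also among the members above 0 in both tissues. The mt- genes were higher in organoid enterocytes, with medians of 0.78 and 0.83 and 10 of 13 past 1.5-fold in each library. With a limit of 10% on mitochondrial UMIs both of these medians fell below 1.5-fold. The median of nuclear members in control organoids was -0.10 with mitochondrial and ribosomal protein genes left out of the totals. With those totals the cocultured nuclear median and the counts of higher members in both libraries also fell. Organoid enterocytes had fewer UMIs per cell than cycling cells, with medians of 69954 and 79629 against 120332 and 129237; its part in the result was not tested.

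On the sections, crypt spots were compared with villus spots in small and with surface spots in large intestine. Crypt spots had a score of crypt genes in the top 20% of their section and a surface score below its median, villus and surface spots the converse, with 330 to 459 spots in a zone. A difference between spots can reflect fewer cells of a type or less RNA per cell, which cannot be told apart. Against all genes, which were themselves higher in crypt spots, the nuclear members stood out little. In small intestine the member median was 0.20 and 0.26 in sections 1 and 2, against 0.24 and 0.35 for all genes, over genes with enough UMIs in both sections. Averaged over both sections, 26 of 84 members were higher in crypt and 5 lower, against 43% and 27.5%. In large intestine the medians were 0.31 and 0.34 against 0.58 and 0.55, with 31 of 89 higher and 4 lower against 49.3% and 18.1%. Counted from the median of all genes, 19 members were higher and 10 lower in small (35.7% and 34.6%) and 8 and 18 in large intestine (29.6% and 29.9%).

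Complex I and complex IV separated along the axis. Medians by complex and list are over the genes with enough UMIs in the given section, which can differ by a few genes between the duplicates. Complex I was higher in crypt spots, with medians of 0.46 and 0.61 in small and 0.46 and 0.49 in large intestine, which is above the median of all genes in small and below it in large intestine. Its assembly factors stood higher, at 1.42 and 1.30 in large intestine. Complex IV was lower in crypt spots, at -0.17 (13 genes) and -0.18 (14 genes, with Cox6b2 added) in small and -0.27 and -0.25 in large intestine. The mt- genes were lower still, with medians of -0.35 and -0.33 in small and -0.98 and -1.13 in large intestine, where all 12 with enough UMIs were lower past 1.5-fold in the mean of both sections. Mitochondrial ribosomal proteins were on the crypt side, at 1.57, 1.66, 1.44 and 1.47, and glycolytic genes on the villus and surface side, at -0.92, -0.86, -1.10 and -1.14. Both duplicates of a tissue gave nearly the same medians.

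Ndufaf4 was among the 2 members highest in crypt spots in each of the 4 sections. It stood at 32.7 and 33.3 CPM in crypt and 5.92 and 6.18 in villus spots of small intestine, and at 46.5 and 42.7 in crypt and 11.3 and 10.9 in surface spots of large intestine. The log2 ratios were 2.47 [1.88 to 3.10], 2.43 [1.91 to 2.98], 2.04 [1.70 to 2.41] and 1.97 [1.63 to 2.32]. Sdhaf1, the assembly factor that serves the iron-sulphur subunit of complex II, was as high, at 2.30 and 2.87 in small and 2.02 and 1.95 in large intestine. Its client Sdhb was lower in small intestinal crypt spots (-0.72 [-0.91 to -0.52] and -0.99 [-1.22 to -0.77]) and near 0 in large intestinal ones (-0.04 and 0.01). Atp5g2 followed with 1.40, 1.46, 1.40 and 1.47. In small intestine the other members at the crypt end were Ndufaf2 (1.72 and 2.02) and Ndufa4, and in section 1 of large intestine Ndufaf6 (2.13), Ndufaf5 (1.79) and Ndufaf1 (1.71).

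At the villus and surface end, Cox7a1 was lower in crypt spots by the most, -2.47 [-2.80 to -2.17] and -1.97 [-2.26 to -1.70] in small and -2.19 [-2.35 to -2.03] and -1.83 [-1.97 to -1.69] in large intestine. In small intestine Uqcrb (-0.83 and -0.81) and Atp5md (-0.65 and -0.75) were next to Sdhb among the lowest. In large intestine Ndufa6 (-0.71 and -0.78), Cox6a1 (-0.59 and -0.65) and Ndufa1 (-0.66 and -0.58) followed. Uqcrb, Ndufa6, Cox6a1 and Ndufa1 also lay above 0 in gated absorptive cells of all 4 single-cell libraries. Cox6b2 went opposite ways in the 2 tissues, with 4.75 and 6.51 CPM in crypt and 14.1 and 16.7 in villus spots of small intestine but 12.6 and 11.3 in crypt and 5.64 and 6.06 in surface spots of large intestine. Only 19 to 108 UMIs stood behind each of these 8 levels.

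Ndufa4, a subunit of complex IV once counted in complex I, was a member for which cells and sections disagreed. Small intestinal crypt spots held 534 and 402 CPM against 136 and 89.9 in villus spots, log2 ratios of 1.98 [1.85 to 2.11] and 2.16 [2.02 to 2.30]. In the single-cell library of the same tissue, stem cells held 879 CPM against 1283 in enterocytes, so enterocytes were the higher group (0.55 [0.46 to 0.63]). Large intestine showed no such reversal, with 753 CPM in Lgr5-positive cells against 378 in colonocytes, and 754 and 786 in crypt against 235 and 245 in surface spots. Muscle moved with the crypt zone: summed muscle markers stood at 4970.2 and 7744 CPM in small intestinal crypt against 1472 and 1749 in villus spots, and at 1358 and 1336 against 508 and 445 in large intestine. Spots with the highest muscle score held 1162 and 1123 CPM of Ndufa4 in small intestine. With muscle-rich spots left out, the mean crypt ratio of Ndufa4 over both sections was 2.19 in small and 1.86 in large intestine, against 2.07 and 1.68 with them.

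Other cell types also differed between the zones. Paneth markers summed to 150776 and 118081 CPM in small intestinal crypt spots against 13824 and 6732 in villus spots. Plasma cell markers summed to 29385 and 27074 CPM in large intestinal crypt spots against 16478 and 16924 in surface spots. Their part in the ratios was not tested. The 98 members together held 3.09% and 2.76% of UMIs in small intestinal crypt spots and 2.89% and 2.42% in villus spots, and 4.84% and 5.05% in large intestinal crypt and 4.55% and 4.70% in surface spots. The mt- genes went the other way, at 4.23% and 4.11% against 5.89% and 5.81% in small and 3.92% and 3.06% against 8.39% and 7.53% in large intestine.

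The organoid pair asks what coculture did to the epithelium. Nearly every nuclear member with enough UMIs was a little higher in the cocultured library, and the mt- genes lay at or below 0. The 98 genes held 4.76% of UMIs in control and 5.66% in cocultured organoids, and the mt- genes 6.82% and 5.98%. Of 92 members with enough UMIs, 91 lay above 0, as did 4314 of all 10781 genes, and 0 were higher and 0 lower past 1.5-fold, against 3.11% and 7.11% of all genes. The minimum of 100 UMIs left out Cox6a2, with 15 UMIs in control and 90 in cocultured organoids (1.42 [0.62 to 2.32]), and Ndufa4l2, with 74 and 90 (-0.88 [-1.34 to -0.42]), and the other 4 members under it had 0 UMIs in either. The member median was 0.26 (range -0.02 to 0.47) and that of all genes -0.08. The mt- median was -0.21, with mt-Nd6 (-0.53), mt-Atp8 (-0.52) and mt-Nd3 (-0.38) lowest.

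The difference was spread evenly over the complexes. The medians were 0.28 for complex I, 0.29 for complex II, 0.26 for complex III, 0.21 for complex IV and 0.23 for complex V, and 0.25 and 0.25 for the assembly factors of complexes I and II. At the top were the complex I subunits Ndufs7, at 249.8 CPM in control and 347 in cocultured organoids (0.47 [0.44 to 0.50]), and Ndufb10 (0.45 [0.42 to 0.48]). Sdhaf4 (0.43 [0.34 to 0.53]), the ATP synthase stalk subunit Atp5o (0.42 [0.40 to 0.44]) and Cox7a1 (0.41 [0.36 to 0.46]) followed. At the bottom was Sdha, at 198 and 195 CPM (-0.02 [-0.06 to 0.02]). The other subunits of complex II stood at 0.38 (Sdhb), 0.21 (Sdhc) and 0.39 (Sdhd), so the flavoprotein was set apart from its own complex. The next lowest were Cox6b2 (0.02 [-0.23 to 0.27]), Cox7a2l (0.05 [0.02 to 0.08]), Sdhaf2 (0.06 [-0.05 to 0.16]) and Ndufa1 (0.08 [0.05 to 0.11]).

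The comparison was repeated within gates. In enterocytes the member median was 0.27 against 0.04 over all genes, with 86 of 86 members and 2722 of 4895 genes above 0. The only one past 1.5-fold was Sdhaf3 (0.65 [0.17 to 1.16]), with 0 lower, against 4.62% of all genes higher and 6.07% lower. Ndufaf4 (0.56 [0.30 to 0.83]) and Sdhd (0.54 [0.45 to 0.62]) were next, and Sdha was again lowest (0.01 [-0.10 to 0.12]). In cycling cells the median was 0.10 against 0.01, with 83 of 91 members and 3673 of 7124 genes above 0, 0 members higher and 0 lower past 1.5-fold against 1.11% and 2.02% of all genes. The difference was therefore smaller in cycling cells than in enterocytes, and whether the 2 gates differ was not tested. Cox7a1 had opposite signs in the gates, at 0.33 [0.25 to 0.41] in enterocytes and -0.42 [-0.63 to -0.22] in cycling cells. In cycling cells 6 of 48 control cells held 50% of its UMIs, with 40 in 1 cell, against 24 of 107 cocultured cells, and this spread between cells lies outside the counting interval. The mt- genes were lower in both gates, at -0.25 and -0.31.

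Related lists lay on the same side as the members. In all kept cells the mitochondrial ribosomal proteins stood at 0.25 (77 of 78 above 0), other respiratory chain and assembly genes at 0.21 (25 of 28), the citrate cycle at 0.20 (15 of 16), fatty acid oxidation at 0.21 (15 of 17) and glycolysis at 0.09 (8 of 13). The libraries differed in depth as well, with medians of 73663.5 and 86295 UMIs per control and cocultured cell. A larger share of control barcodes was over the limit on mitochondrial UMIs, 135 of the 675 with at least 500 genes against 123 of 1160. The part of depth, cell quality and library in the difference was not tested, and with 1 library each the library and the condition cannot be told apart.

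**Figure D4:**
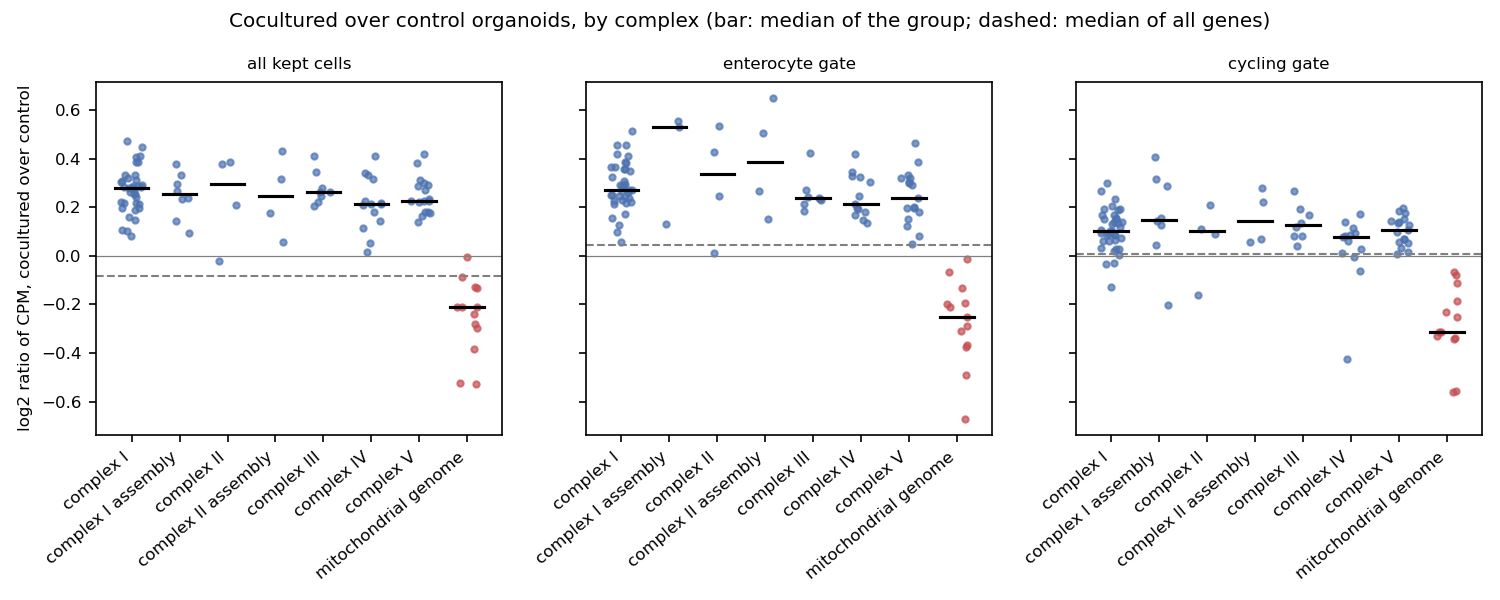
Log2 ratio of cocultured over control organoids for each member with at least 100 UMIs in the higher library, by complex, in all kept cells, enterocyte-gated and cycling-gated cells; the dashed line is the median of all genes. In all kept cells 91 of 92 members and 4314 of 10781 genes lie above 0, the members with a median of 0.26, while the mt- genes lie at or below 0.

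Organoid epithelium was also set against the epithelial-gated cells of small intestinal tissue; both organoid conditions share that 1 tissue library. Most nuclear members were within 1.5-fold of tissue in culture. The median was -0.09 for control and 0.19 for cocultured organoids, against 0.04 and -0.04 over all genes. In control organoids 5 of 92 were higher and 0 lower past 1.5-fold, against 20.7% and 21.1% of all genes, and in cocultured organoids 10 and 0 against 19.5% and 25.9%. With a limit of 10% or 50% on mitochondrial UMIs, the higher count in cocultured organoids was 16 or 19. A smaller share of the members than of all genes was thus past 1.5-fold, but all genes were not matched to the members for level. The small negative median of control organoids changed sign with other filters on mitochondrial UMIs and with another total, to between 0.0078 and 0.057. The glycolytic genes gave the contrast, with medians of 2.10 and 1.71 and 13 of 13 higher in both.

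A small set differed more. Ndufb1-ps, annotated as a pseudogene and therefore uncertain since its reads may belong to a near-identical copy, stood at 499.7, 539 and 225 CPM in control organoids, cocultured organoids and tissue (1.15 [1.12 to 1.19] and 1.26 [1.23 to 1.29]). Sdhaf1 stood at 65.2, 73.6 and 34.4 CPM (0.92 [0.83 to 1.02] and 1.10 [1.01 to 1.18]), Atp5k, a small ATP synthase subunit, at 0.79 [0.77 to 0.82] and 0.94 [0.91 to 0.96], Ndufaf4 at 0.65 [0.57 to 0.73] and 0.98 [0.92 to 1.05], and Sdhaf3 at 0.60 [0.42 to 0.77] and 0.91 [0.76 to 1.07]. These 5 were the highest in both conditions, and 3 of them are assembly factors. The lowest in control organoids were Ndufb10 (-0.51 [-0.55 to -0.48]), Cox6b2 (-0.51 [-0.79 to -0.22]), Ndufb11 (-0.50 [-0.53 to -0.47]), Ndufb7 (-0.47 [-0.50 to -0.43]) and Ndufs7 (-0.46 [-0.49 to -0.42]). In cocultured organoids the lowest were Cox6b2 (-0.50 [-0.74 to -0.27]), Sdha (-0.20 [-0.24 to -0.16]), Ndufb7 (-0.18 [-0.21 to -0.15]), Ndufb11 (-0.18 [-0.20 to -0.15]) and Cox4i1 (-0.16 [-0.17 to -0.15]). Within complex II, Sdhd was higher in organoids (0.49 and 0.88) while Sdhb stood at -0.42 and -0.04.

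Among enterocytes, control organoids stood below tissue, with a median of -0.36 against -0.06 over all genes, 2 of 84 higher and 17 lower against 20.1% and 22.8%. The lowest were the assembly factors Ndufaf2 (-0.91 [-1.36 to -0.47]) and Ndufaf3 (-0.90 [-1.34 to -0.47]) and the subunit Ndufb7 (-0.86 [-0.97 to -0.76]). Cocultured enterocytes stood at -0.09 against 0.03, with 5 and 2 of 86 against 22.6% and 22.2%, and were closer to tissue. Among cycling cells the medians were -0.13 and -0.01 against -0.0015 and 0.06 over all genes, with 4 higher and 2 lower of 91 in control (14.2% and 15.7% of all genes) and 4 and 1 of 90 in cocultured organoids (17.3% and 18.7%). The mt- genes stood at -0.11 and -0.32 in epithelium, at 0.27 and -0.04 in enterocytes and at -0.23 and -0.58 in cycling cells. These values moved with the limit on mitochondrial UMIs. In epithelium a limit of 10% gave 0.16 for control and -0.000798 for cocultured organoids, and a limit of 50% gave -0.49 and -0.79. Depth differed widely, with medians of 73732 and 86430 UMIs per epithelial organoid cell against 25598 in tissue, and culture, sorting, depth and library cannot be told apart.

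**Figure D5:**
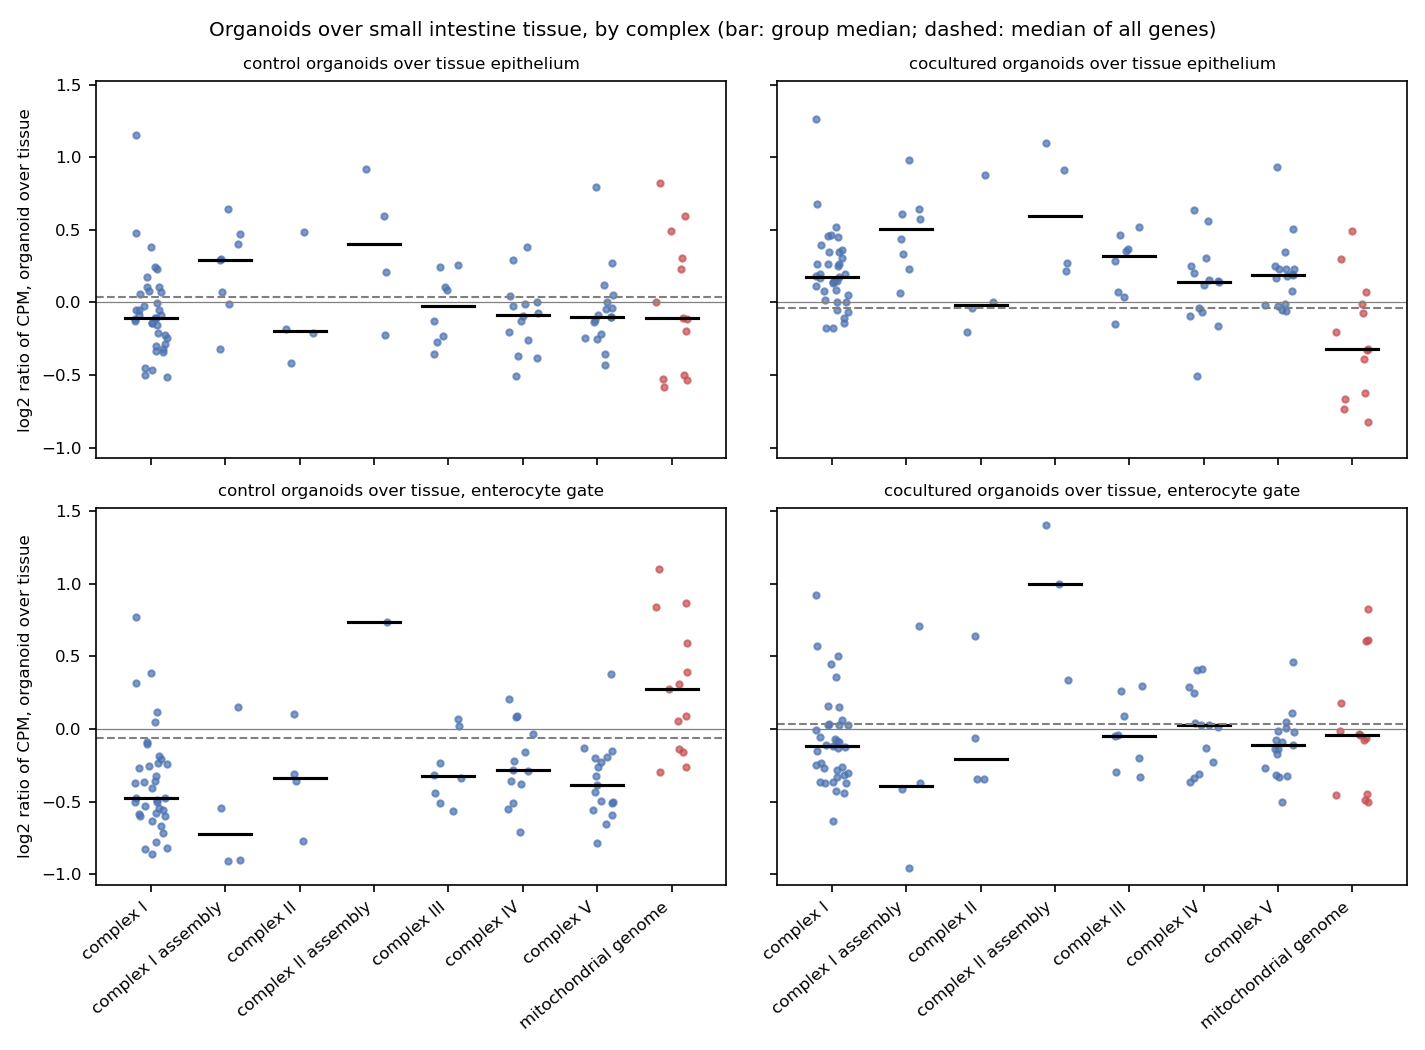
Log2 ratio of organoid over small intestinal tissue cells for each member by complex, for control and cocultured organoids, in epithelial-gated and enterocyte-gated cells; the dashed line is the median of all genes. Epithelial medians are -0.09 for control and 0.19 for cocultured organoids, and most members of control enterocytes lie below 0.

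The remaining isoforms were rare in all libraries. Cox6a2, the muscle form of subunit VIa, had 210 UMIs in small intestinal tissue, of which 152 lay in immune-gated cells (63.6 CPM), and 3 of 459 such cells held 50% of them. In large intestine its 10 immune UMIs came from 1 cell. Cox6a1, its widespread partner, stood at 504 CPM in stem cells and 1372 in enterocytes of small intestine. Cox4i2, the lung-type subunit IV, had 0 UMIs in either organoid library, where 3 UMIs would be 0.0693 and 0.0309 CPM and the exact 95% intervals reach 0.0852 and 0.0380 CPM, and 24 UMIs (10.2 CPM) in fibroblast-gated cells of large intestine. Ndufa4l2, a paralog of Ndufa4 known to be induced by hypoxia, had 43 UMIs there (18.3 CPM).

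Cox8b, the muscle form of subunit VIII, had 0 UMIs in either organoid library and reached 12.0 and 15.1 CPM in the small intestinal spots with the highest muscle score, against 0.999 and 1.75 in crypt spots. Ndufa4l2 stood at 9.95 and 4.92 CPM in the same muscle spots. The fibroblast gates also held muscle markers, at 9644 CPM in small and 5738 in large intestine. Cox7b2 and Cox8c had 1 UMI each over the kept cells and spots of all libraries.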

How the data were processed

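RNA was counted in 4 droplet single-cell libraries (small intestinal organoids, control and cocultured, and sorted small and large intestine) and in 4 Visium sections. The values are UMI counts per gene and barcode, which the authors deposited as filtered matrices made with Cell Ranger 6.0.1 against mm10 (GRCm38), per the submitters' processing notes, or with Space Ranger, per the file headers of the Visium libraries. Settings for multimapped reads are not given in the sources used here.

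Barcodes under 500 genes or over 20% mitochondrial UMIs were dropped, the highest Scrublet doublet scores were removed at 0.8% per 1000 cells (Scanpy 1.11.5), and spots needed 500 UMIs. Epithelial cells carried at least 3 of 7 epithelial markers and at most 1 other marker. A class needed a mean log2 enrichment of its markers of 1 and a lead of 0.5 over the next class, groups under 20 cells were not compared, and 92 to 361 cells per library lay within 0.25 of a gate. CPM came from summed UMIs and ratios carry exact Poisson intervals of 95%. A count under 3 was set to 3. UMI intervals cover counting error only. In Poisson counts simulated from the small intestinal enterocyte and stem groups, 96.2% of the intervals over 2490 genes held the true ratio. This checks the calculation only, because the simulated counts hold no spread between cells.

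The planned stem base of the large intestine held 0 cells, so Lgr5-positive cells (at least 2 Lgr5 UMIs) were chosen after seeing the data. Named genes are the 5 highest and 5 lowest members of each comparison, the paired isoforms, the Sdh subunits and the mt- genes, and other members were picked from the 8 comparisons together after their values were seen. Atp5if1 was not found under that symbol. The members, gene lists and comparisons were chosen with earlier results of these data known. Alternatives changed the filters, gates, totals, scaling, minimum count and zones. Promoters were taken from RefSeq (GRCm38.p6). Software was Python 3.11.15, NumPy 2.4.6, SciPy 1.17.1, pandas 2.3.3 and Matplotlib 3.10.9.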

Additional observations from a re-analysis of the deposited data

Results flagged for a closer look

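Of the members and mt- genes with at least 100 UMIs in every section, 9 members and 2 mt- genes had ratios of opposite sign in the tissues, with both sections of one tissue above 0 and both of the other below. The difference between tissues was not tested, the sections of a tissue are technical duplicates, and several of the values lie close to 0. The signs are those of CPM, whose all-gene medians were 0.24 and 0.35 in the small and 0.58 and 0.55 in the large intestinal sections. The values that follow are the mean log2 ratio of crypt over villus spots in small intestine and then that of crypt over surface spots in large intestine. Lower in small and higher in large intestinal crypt spots were the ATP synthase subunits Atp5c1 (-0.29 and 0.29), Atp5f1 (-0.27 and 0.28), Atp5md (-0.70 and 0.074) and Atp5d (-0.0496 and 0.032), and Cox4i1 of complex IV (-0.20 and 0.025). The converse held for Ndufv2, a subunit of complex I (0.40 and -0.15), for Cox7b (0.15 and -0.25) and Cox5b (0.048 and -0.22) of complex IV, for Atp5j2 (0.11 and -0.034), and for the mitochondrially encoded mt-Nd3 (0.27 and -0.68) and mt-Cytb (0.051 and -0.83). Cox6b2, with under 100 UMIs in some sections, had -1.57 and -1.36 in the small and 1.17 and 0.89 in the large intestinal sections. Single cells of small intestine went the other way from its sections, with Cox6b2 lower in enterocytes than in stem-gated cells (-1.34, from 16 and 25 UMIs).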

How the results depend on the processing

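Of the medians and counts recomputed under other settings, 152 moved by less than a bound, 85 by more (1 of them, the nuclear median of control organoid enterocytes, across 0) and 7 changed sign. The bound was 1.5 times for a count, and for a median the typical counting error of 1 gene in cells or the SD between sections. The settings were totals without mitochondrial and ribosomal protein genes (the reduced total, which moves every gene by the same amount), a limit of 10% or 50% on mitochondrial UMIs, averaging CPM over cells, median-of-ratios size factors, a minimum of 20 UMIs, other gates and other zones; why values moved was not tested. Lgr5-positive and cycling cells as bases were added after seeing the data. For cocultured over control organoids, the nuclear median of 0.26 was 0.23 at the 10% limit, 0.31 with cell means and 0.34 with size factors. Its mt- median of -0.21 was -0.19 with the reduced total, -0.14 at the 10% limit, -0.31 at the 50% limit and -0.13 with size factors. The count higher of 0 was 1 with cell means and 1 at 20 UMIs, and the count lower of 0 was 1 at 20 UMIs. For control organoids over tissue, the nuclear median of -0.085 was 0.0078 with the reduced total, 0.057 at the 10% limit, 0.035 at the 50% limit and -0.12 with size factors. The mt- median of -0.11 was -0.018 with the reduced total, 0.16 at the 10% limit, -0.49 at the 50% limit, -0.079 with cell means and -0.15 with size factors. The count lower of 0 was 1 at the 10% limit and 1 with cell means. For cocultured organoids over tissue, the nuclear median of 0.19 was 0.31 with the reduced total, 0.28 at the 10% limit, 0.32 at the 50% limit, 0.25 with cell means and 0.23 with size factors. Its mt- median of -0.32 was -0.21 with the reduced total, -0.000798 at the 10% limit, -0.79 at the 50% limit, -0.31 with cell means and -0.28 with size factors. The count higher of 10 was 16 at the 10% limit and 19 at the 50% limit, and the count lower of 0 was 1 at the 10% limit and 1 with cell means. For small intestinal enterocytes over stem cells, the nuclear median of 0.96 was 0.63 with the reduced total, 1.13 at the 50% limit, 1.21 with the stricter gate and 0.78 against Lgr5-positive cells. The mt- median of 0.29 was -0.041 with the reduced total, 0.18 at the 10% limit, -0.11 at the 50% limit, 0.16 with cell means and 0.41 with the stricter gate. The count lower of 2 was 1 at the 10% limit, 1 at the 50% limit and 8 at 20 UMIs. For colonocytes over Lgr5-positive cells, the nuclear median of 0.20 was -0.073 with the reduced total, 0.45 at the 10% limit and 0.066 at the 50% limit. Its mt- median of 0.41 was 0.13 with the reduced total, 0.079 at the 10% limit, 0.63 at the 50% limit, 0.30 with cell means and 0.55 against cycling cells. The count higher of 23 was 12 with the reduced total. For control organoid enterocytes over cycling cells, the nuclear median of 0.088 was -0.098 with the reduced total and 0.26 at the 10% limit. The mt- median of 0.78 was 0.59 with the reduced total, 0.45 at the 10% limit, 0.95 at the 50% limit and 0.66 with cell means. The count higher of 7 was 4 with the reduced total, 11 at the 10% limit and 4 at the 50% limit, and the count lower of 11 was 7 at the 10% limit. For cocultured organoid enterocytes over cycling cells, the nuclear median of 0.24 was 0.046 with the reduced total, 0.32 at the 10% limit and 0.12 with cell means. Its mt- median of 0.83 was 0.64 with the reduced total, 0.53 at the 10% limit, 0.87 at the 50% limit and 0.81 with cell means. The count higher of 13 was 7 with the reduced total, 20 at the 10% limit and 8 with cell means. For small intestinal crypt over villus spots, the nuclear median of 0.22 was 0.30 with the reduced total, 0.38 in the top 10% of spots and 0.37 without muscle-rich spots. The mt- median of -0.34 was -0.26 with the reduced total and -0.50 without muscle-rich spots. The count lower of 5 was 3 in the top 10% of spots and 3 without muscle-rich spots. For large intestinal crypt over surface spots, the nuclear median of 0.30 was 0.53 with the reduced total, 0.33 at 20 UMIs, 0.33 in the top 10% of spots and 0.36 without muscle-rich spots. Its mt- median of -1.07 was -0.84 with the reduced total. The count lower of 4 was 1 with the reduced total and 2 without muscle-rich spots. With each section left out in turn, and over the genes with enough UMIs in the section that remains rather than in both, the nuclear medians ran from 0.20 to 0.25 in small and from 0.33 to 0.34 in large intestine, and the mt- medians from -0.35 to -0.33 and from -1.13 to -0.98. No paired analysis was possible because the results come from no test, the sections are technical duplicates, and crypt and surface spots were compared within a section. The stricter gate left under 20 organoid cells and was not run there. Depth limits members under 100 UMIs, such as Cox8b and Cox4i2.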
